A study of Sus scrofa with 2 samples.

Results

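Inhibins and activins are secreted dimers of the TGF-beta family that granulosa cells, the follicle cells around the oocyte, release. INHA encodes the alpha subunit, which is found in inhibins, and INHBA encodes the beta A subunit, which pairs with the alpha subunit in inhibin A and with itself in activin A. Inhibin lowers the release of FSH from the pituitary and activin raises it, and FST encodes follistatin, which binds activin and keeps it from its receptors. Within the follicle the same proteins act locally on granulosa and theca cells.

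The 3 genes INHA, INHBA and FST were measured in porcine ovary by probes that carry a RefSeq transcript accession of the gene, and all 3 were found among 2363 named genes with a value. Each gene had 2 probes, each printed as 1 spot, so 6 of the 43597 probes of the array describe them. The RNA came from ovarian tissue of conventional pigs (Yorkshire sows) and of minipigs (Midget pigs), both 10 months old and on day 15 of the estrous cycle, when the corpus luteum regresses, and luteal tissue had been cut away. The methods name 5 animals of each breed, but 1 single-colour Agilent array was deposited per breed, and whether its RNA was pooled is not given in the sources used here. No difference between the breeds therefore has a replicate check, no test was run, and the number of arrays limits the precision. The genes of INHBB, INHBC and INHBE, which encode the other beta subunits, had no probe matched in this way and were not analysed here.

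The breed of each array is given in contradictory ways, and every direction depends on it. The scanner files label 1 array as minipig and the other as pig, while the authors' table of log2 values assigns them the other way round: for all 5617 probes listed, its minipig column equals the scanner intensity of the pig array less a constant, within 0.025 log2 units, and its pig column that of the minipig array within 0.0072. The labels of the scanner files are used throughout, so "minipig array" and "pig array" (the conventional pigs) follow those labels, and the table would exchange each direction. Levels are log2 intensities above the 75th percentile of the array, and differences are pig array minus minipig array. Over the 38883 probes with a difference, the median was -0.12. Of them, 8.94% were 2-fold or more higher on the minipig array and 7.48% 2-fold or more higher on the pig array, which is 3475 and 2909 probes. These numbers were 2579 and 3840 after median centring and 1411 and 2020 after normexp background correction. The only measured error lies within an array. Repeated spots of 42 other probes gave an SD of 0.25 for a log2 difference between single spots. The error model of the scanner software gave 0.20 for each of the 6 probes of INHA, INHBA and FST. It assigned a log2 error of 0.14 to each of these spots on either array, so it is a modelled value and not a measured spread.

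INHA was higher on the minipig array with both probes. The brighter probe, A_72_P146956, had an intensity of 5760.1 ± 576 on the minipig array and 656 ± 65.6 on the pig array, where the error is that of the scanner software. Its log2 levels were 3.54 and 0.35, a difference of -3.19, or 9.11-fold. The second probe, A_72_P024901, had an intensity of 1505 ± 151 on the minipig array and 381 ± 38.2 on the pig array. Its log2 difference was -2.04, or 4.10-fold, from a level of 1.61 to one of -0.43. The probes thus gave the same direction and both passed 2-fold, but they differed by 1.15 in the size of the difference. Both differences were larger than the spread between spots, at 12.6 and 8.06 times its SD. Only 0.265% of all probes had a difference as low as the brighter probe, and 1.44% one as low as the other. Taken as the median of its probes, INHA differed by -2.61, or 6.12-fold.

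**Figure D1:**
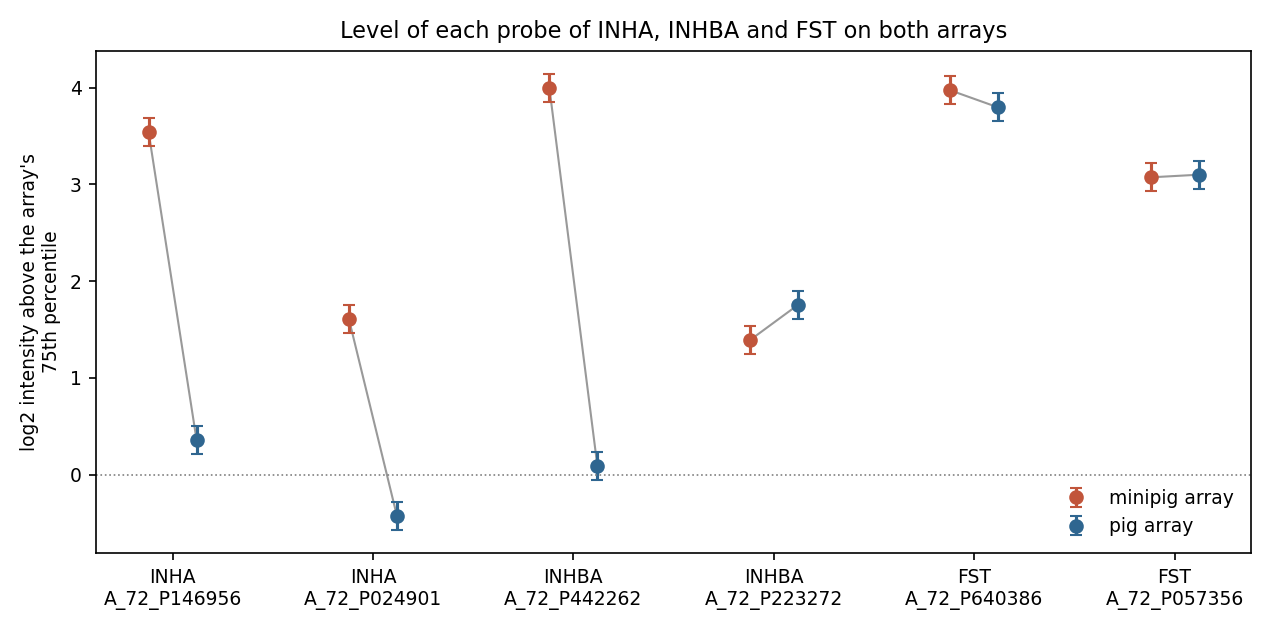
Log2 intensity above the 75th percentile of the array for each probe of INHA, INHBA and FST on the minipig array (red) and the pig array (blue), with bars for the error of the scanner software. Both INHA probes and 1 INHBA probe lay lower on the pig array, whereas the other INHBA probe was at 1.39 and 1.75 and the FST probes differed by -0.18 and 0.03.

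INHBA gave opposite answers with its probes. Probe A_72_P442262 had an intensity of 7910.1 ± 791 on the minipig array and 545 ± 54.6 on the pig array. This was a log2 difference of -3.91, or 15.1-fold, down to a level of 0.09, and only 37 of all probes were as low. Probe A_72_P223272 had an intensity of 1294 ± 129 on the minipig array and 1729 ± 173 on the pig array. Its log2 difference was 0.37, or 1.29-fold toward the pig array, which is 1.45 times the SD between spots. One probe was thus among the most different on the array and the other close to the middle of the distribution, with 23.0% of probes as high. The median over the pair, -1.77, lies at a value that neither probe showed, so INHBA is described by its probes and not by that median.

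The gap between the INHBA probes was 4.28 log2 units. Among 1185 named genes with more than 1 probe, every one well above background on both arrays, the median gap between the lowest and the highest probe was 0.37 and the 90th percentile was 1.11. Only ACTA1, with 16 probes, had a wider gap, at 4.59, and among the 618 genes with 2 such probes INHBA had the widest. For INHA the gap of 1.15 was reached or passed by 8.95% of the 1185 genes, and for FST the gap of 0.20 by 71.7%. The sign differed between probes in 324 genes, but only in 43 of them was a probe past 2-fold while another went the opposite way, as in INHBA.

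**Figure D2:**
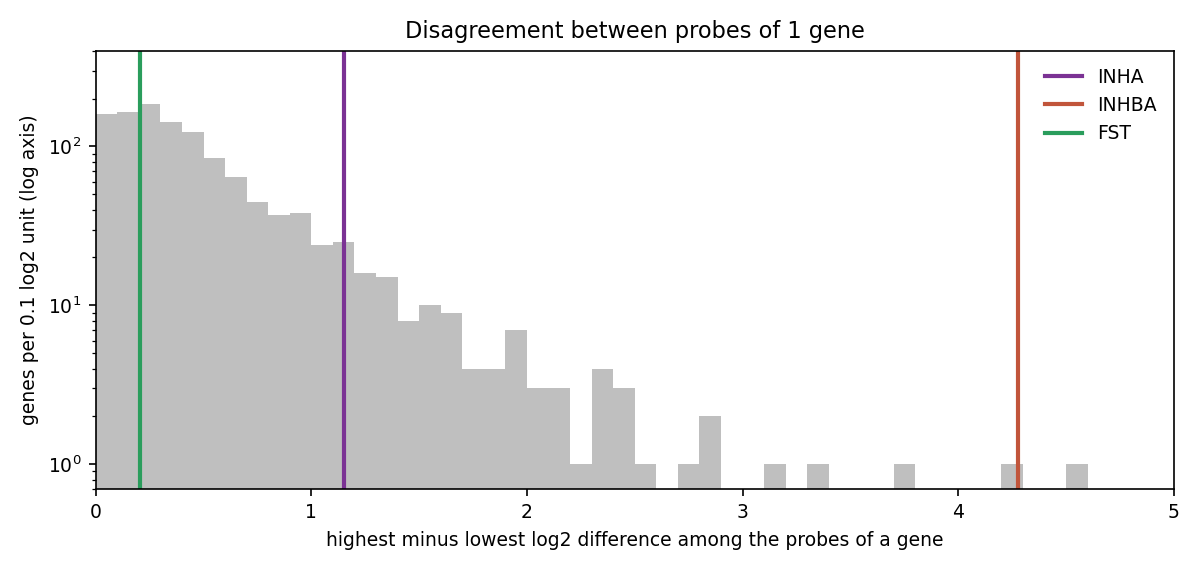
Number of genes (log axis) by the gap between the highest and lowest log2 difference of their probes, for 1185 genes with more than 1 probe and every probe well above background on both arrays. The lines mark FST at 0.20, INHA at 1.15 and INHBA at 4.28.

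Neither INHBA spot was flagged by the scanner software. Both were well above background and carried 0 outlier flags on either array, and no spot of the array was saturated. The median pixel signal of A_72_P442262 was 353 times the local background on the minipig array and 28.3 times on the pig array. For A_72_P223272 these ratios were 57.2 and 64.0. The 23 spots around A_72_P442262 had a median log2 difference of -0.43, and the 24 spots around A_72_P223272 one of -0.09. Around the INHA and FST probes the median lay between -0.12 and 0.16, so the value around A_72_P442262 was the farthest from 0. The part of position on the array in the disagreement was not tested. The RefSeq annotation of the assembly Sscrofa11.1 gives INHBA 1 transcript, which both probes carry as their accession. That gene model has the biotype "other", held by 3 of the 30371 genes of the table (RSC1A1 and STEAP1 are the remaining ones), and lies between NAA38 and LOC102158553 with no overlapping gene. INHA and FST are annotated as protein coding. Which stretch of the transcript each probe matches was not analysed here, and the part of the annotation in the disagreement was not tested.

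FST was nearly equal on the arrays with both probes. Probe A_72_P640386 had an intensity of 7758 ± 776 on the minipig array and 7117 ± 712 on the pig array, a log2 difference of -0.18. Probe A_72_P057356 had 4158 ± 416 and 4396 ± 439.6, a difference of 0.03. Both lay within 1 SD between spots, at 0.70 and 0.11 times its value, and 77.9% and 96.5% of all probes were as far from 0 or farther. The direction of FST is not settled by these values: its median over probes was -0.08, but 0.08 after median centring of the arrays. Within the limits of a single array per breed, follistatin transcript was present well above background on both arrays, with pixel signals 183 to 345 times the local background, while the inhibin alpha transcript differed several-fold.

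**Figure D3:**
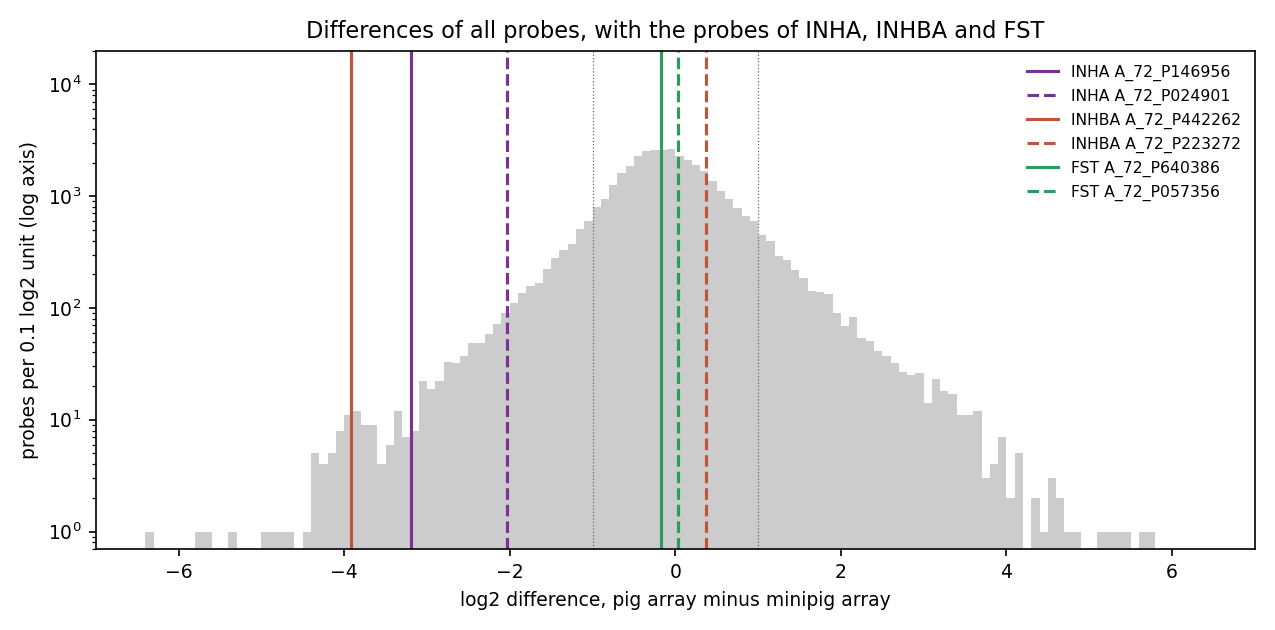
Number of probes (log axis) by log2 difference, pig array minus minipig array, for 38883 probes, with vertical lines at the probes of INHA, INHBA and FST and dotted lines at 2-fold. Both INHA lines and 1 INHBA line lie in the lower tail at -2.04 or below, and the other 3 lie between -0.18 and 0.37.

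In all, 3 of the 6 probes were 2-fold or more higher on the minipig array, against 8.94% of all probes, and 0 were 2-fold or more higher on the pig array. The authors' log2 table, which lists only probes past 2-fold, holds the same 3 probes and none of FST. Counted as genes, INHA was past 2-fold with every probe, INHBA with 1 of its probes and FST with none. Of all named genes, 7.96% were 2-fold or more higher on the minipig array and 11.7% 2-fold or more higher on the pig array, with a median log2 difference of 0.04. The order of the log2 differences placed INHA lowest at -2.61 and FST at -0.08, farther apart than the probes of either gene. INHBA has no settled place, since its probes lay below both INHA probes and above both FST probes.

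Scaling did not change which of the 6 probes passed 2-fold. Under 75th percentile scaling, normexp background correction, median centring, quantile normalization and loess normalization, A_72_P146956 of INHA stayed between -3.40 and -3.03 and A_72_P024901 between -2.10 and -1.88. The INHBA probes stayed between -4.12 and -3.76 and between 0.20 and 0.52. The FST probes ranged from -0.57 to -0.02 and from -0.24 to 0.18, so the second changed sign.

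**Figure D4:**
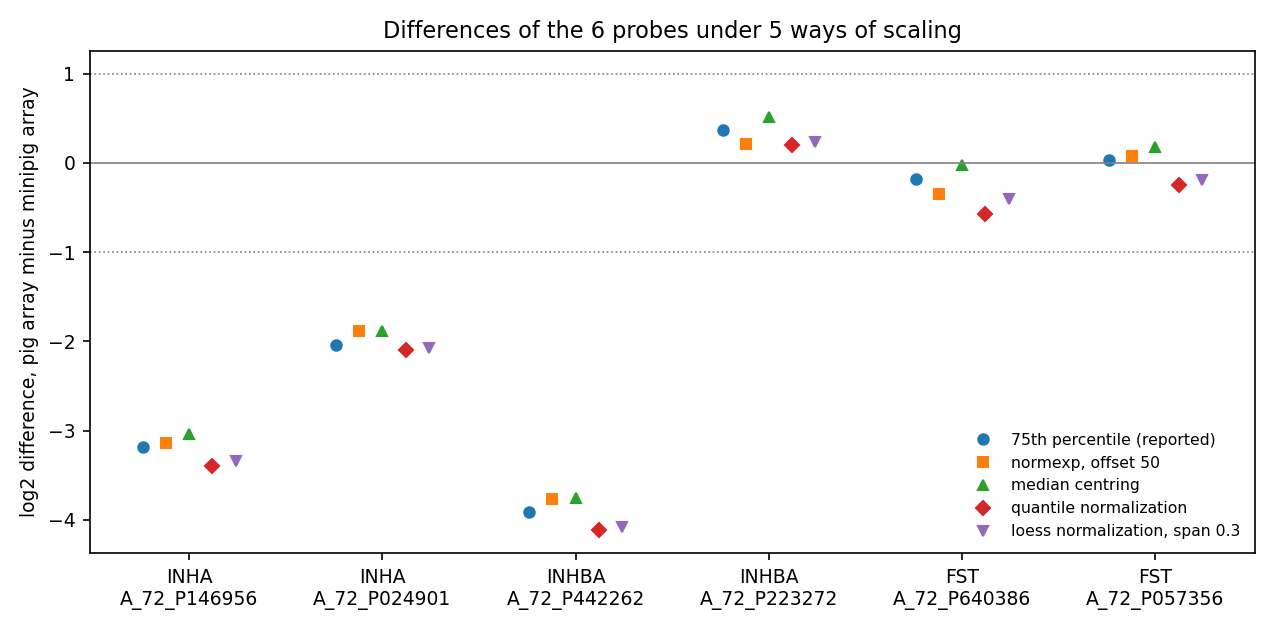
Log2 difference, pig array minus minipig array, of each of the 6 probes under 5 ways of scaling (symbols), with dotted lines at 2-fold. The symbols of a probe lie close together, and those of A_72_P057356 of FST fall on both sides of 0.

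The receptors, binding proteins and signal carriers of the pathway were taken from a list of 56 genes in 6 roles, of which 23 had a value, the 3 genes above included. The list therefore covers 41.1% of its genes and does not measure the pathway. Of the 20 genes other than INHA, INHBA and FST, 3 were 2-fold or more higher on the minipig array, 0 on the pig array, and 17 differed by less. Over all named genes, the shares past 2-fold were 7.96% and 11.7%. The counts became 1 and 1 under normexp correction and under median centring. Of the 2363 named genes, 98 and 207 were then past 2-fold under normexp correction, and 140 and 364 under median centring. Of the 20 genes, 14 were below 0, beside 1123 of the 2363 named genes. The median log2 difference of the 20 genes was -0.38, against 0.04 over all named genes. Under the other scalings the median lay between -0.41 and -0.23, while that over all named genes lay between 0.02 and 0.19.

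Among receptors, TGFBR3 had the largest difference. It encodes betaglycan, the co-receptor through which inhibin binds activin type II receptors, and its 1 probe had levels of -1.92 on the minipig array and -3.22 on the pig array. The log2 difference of -1.31 was reduced to -0.72, under 2-fold, after normexp correction. ACVR2B, an activin type II receptor, was at -0.63 from 1 dim probe, with levels of -2.92 on the minipig array and -3.54 on the pig array. ACVR1, a type I receptor of the family, was at -0.41 with probes at -0.46 and -0.36. All 3 receptors were thus lower on the pig array, although only TGFBR3 passed 2-fold. ACVR1B, ACVR1C and ACVR2A had no matched probe.

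Besides FST, the extracellular antagonists with a value were NOG, which encodes the BMP-binding noggin, at -0.58 from 1 probe, and DCN, which encodes the TGF-beta-binding proteoglycan decorin, at -0.36. The 4 probes of DCN ran from -0.43 to -0.26, a narrow range beside that of INHBA. None of the antagonists was past 2-fold.

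Of the other ligands, AMH, which encodes the anti-Müllerian hormone of granulosa cells in small follicles, was at -1.03, and TGFB3 at -1.09. The 4 probes of AMH were spread from -2.22 to -0.09, and the 2 of TGFB3 were at -1.31 and -0.86. Neither stayed past 2-fold under every scaling, since the value closest to 0 was -0.87 for AMH and -0.89 for TGFB3. The oocyte-derived ligands GDF9 and BMP15 were at -0.92 and -0.18. BMP6 was at -0.48, BMP4 at -0.29, and MSTN, the gene of myostatin, which follistatin also binds, at -0.68. TGFB1 was above 0 at 0.69 with probes at 0.52 and 0.87, and BMP7 was at 0.02. The ligands therefore differed in sign, and BMP15 was at 0.0064 after normexp correction.

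Further receptors and signal carriers lay under 2-fold. The type I receptor genes TGFBR1 and BMPR1B were at 0.63 and 0.11, and the 3 probes of BMPR1B ran from -1.04 to 0.61. SMAD3, which carries the activin signal to the nucleus, was at 0.05 with probes that differed by 0.0044, and its partner SMAD4 was at -0.40 with all 5 probes below 0. SMAD1, a carrier of BMP signals, was at -0.26. FKBP1A, whose product binds type I receptors, was the highest of the pathway genes on the pig array at 0.96, and passed 2-fold after normexp correction or median centring.

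**Figure D5:**
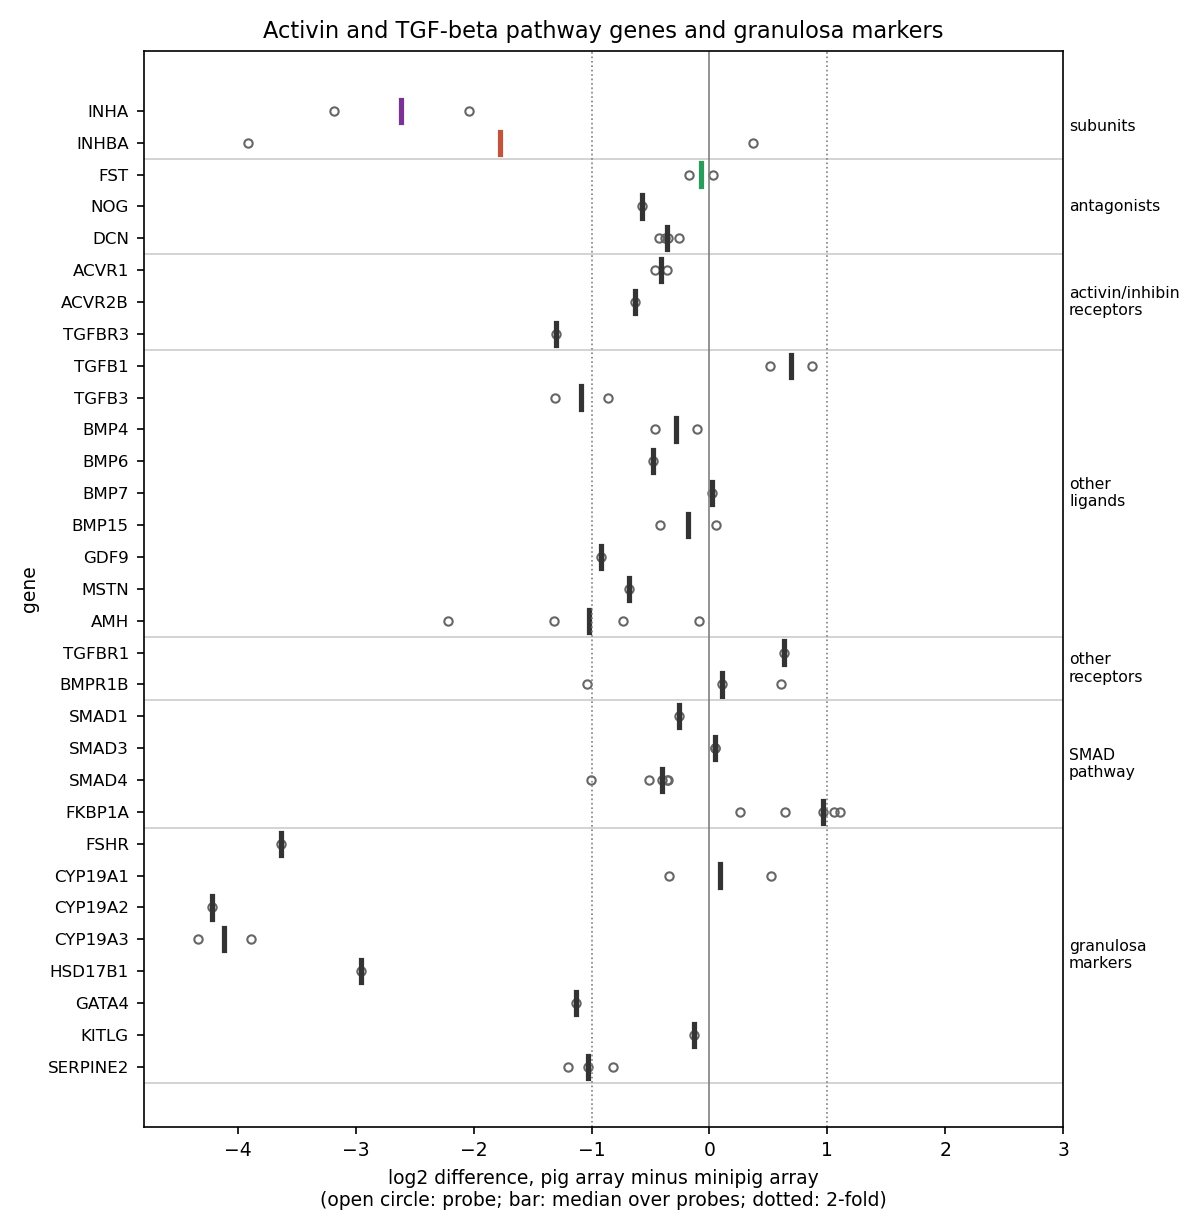
Log2 difference, pig array minus minipig array, for the pathway genes by role and for further granulosa markers (open circles: probes, bars: median over probes, dotted lines: 2-fold). The medians of the pathway genes other than INHA and INHBA all lie between -1.31 and 0.96, while some of their probes lie outside that range. The medians of FSHR, HSD17B1, CYP19A2 and CYP19A3 lie at -2.96 or lower.

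INHA and INHBA are themselves markers of granulosa cells, so the remaining markers of that cell type stand beside them. In tissue RNA, fewer cells of a type and less RNA per cell cannot be told apart. Of 13 granulosa markers other than INHA, INHBA and FST, 9 had a value. Of these, 7 were 2-fold or more higher on the minipig array and 0 on the pig array. Over all named genes, the shares were 7.96% and 11.7%. The median of the 9 markers was -1.13. Under the other scalings, between 4 and 6 of them were 2-fold or more higher on the minipig array, beside 98 to 172 of the 2363 named genes. FSHR, the receptor for FSH, was at -3.63, and HSD17B1, which makes estradiol from estrone, at -2.96, each from 1 probe. The aromatase genes CYP19A2 and CYP19A3 were at -4.22 and -4.11, while CYP19A1 was at 0.09. These are close paralogs, and how far a probe of one binds the transcripts of another was not tested. CYP19A2 and CYP19A3 count among the 7 markers past 2-fold, but whether granulosa cells were their source was not tested. GATA4 was at -1.13, but under 2-fold at -0.98 to -0.70 under the other scalings. SERPINE2 was at -1.03, but at -0.91 after normexp correction and -0.87 after median centring. KITLG was at -0.13 and changed sign under 3 of the 4 other scalings. FST, which granulosa cells also express, was near 0, unlike the 7 markers past 2-fold under 75th percentile scaling. CYP19A1 and KITLG were near 0 as well, but the probes of CYP19A1 disagreed in sign, at -0.34 and 0.52. The probe at 0.52 was bright, with levels of 2.92 on the minipig array and 3.44 on the pig array. The probe at -0.34 was dim, with levels of -2.96 and -3.30. The 1 probe of KITLG was dim, at levels of -3.81 on the minipig array and -3.93 on the pig array. The probes of FSHR (-3.75) and GATA4 (-2.73) and 1 probe of CYP19A3 (-3.48) were also dim on the pig array. On the minipig array these probes were at -0.12, -1.60 and 0.41.

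Markers of the other cell types are given by their counts and medians. Over all named genes, 7.96% were 2-fold or more higher on the minipig array and 11.7% on the pig array. Of the 5 theca markers with a value, of 7 listed, 3 were past 2-fold in the same direction as INHA: INSL3 (-3.76), CYP17A1 (-1.74) and ANPEP (-1.13, but -0.98 after median centring). LHCGR (-0.62) was lower on the pig array and ENG (0.80) higher, both under 2-fold. The median of the 5 theca markers was -1.13. Of 10 luteal and steroidogenic markers, 8 had a value, with 2.47 as their median log2 difference, and 5 were past 2-fold on the pig array. STAR (3.07), HSD3B1 (3.11) and CYP11A1 (2.63) led them, with all probes well above background although luteal tissue had been removed. OXT (0.33), PGR (0.36) and PRLR (-0.55) were under 2-fold, and PRLR was lower on the pig array. Of 10 oocyte markers, 7 had a value, with -0.92 as their median, and 3 were past 2-fold on the minipig array. The 3 smooth muscle markers with a value, of 5, were DES (-2.00) and CNN1 (-1.32), both past 2-fold on the minipig array, and ACTA2 (0.10), whose sign turned under 2 of the 4 other scalings. Of the 3 immune markers with a value, of 5, CD14 (1.04, but 0.80 under normexp correction) was past 2-fold on the pig array, and CD3E (0.22) and CD163 (-0.25) were not. Of 5 endothelial markers, 2 had a value, both under 2-fold, with 0.46 as their median. Summed on a linear scale on which the 75th percentile of an array is 1, the 9 granulosa markers came to 112 for the minipig array and 43.0 for the pig array, but SERPINE2 alone made up 78.8% and 88.9% of these sums. The theca sums were 84.5 and 15.1, with INSL3 as 85.2% of the first, and the luteal sums were 96.6 and 324, with OXT as 68.0% of the first and STAR as 45.0% of the second. The sums thus follow a few bright probes and do not describe the lists. The part of these cell types in the differences of INHA and INHBA was not tested.

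For INHA, INHBA and FST, the 3 genes with the most similar log2 difference were taken from 861 genes whose probes, at least 2, were all well above background and all of 1 sign. Nearest to INHA were FCN2 (-2.74), HSP70.2 (-2.84) and SCG5 (-2.22), the closest of them 0.13 away. Nearest to FST were RPS16 (-0.07), ADAM17 (-0.08) and ADIPOQ (-0.08), all within 0.0087. For INHBA the rule used the median of disagreeing probes and returned NNAT (-1.76), PPARG (-1.75) and CHI3L1 (-1.75), which resemble neither INHBA probe. The likeness is that of a single difference over 2 arrays.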

How the data were processed

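Total RNA from ovary without corpora lutea was labelled with Cy3 and hybridised to 1 Agilent porcine array per breed. The authors deposited the intensity values of Feature Extraction 10.7.3.1 for each scan, corrected for background and spatial trend but not scaled between arrays. They also deposited log2 values of 5617 probes past 2-fold, made with GeneSpring; the scaling and filter are not given in the sources used here.

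Here, outlier-flagged spots (5 on the minipig and 10 on the pig array) and controls were left out, log2 intensities were averaged over the spots of a probe, and the 75th percentile of each array was subtracted. Probes well above background on 1 array gave a bound. Unversioned accessions were looked up in the RefSeq table of Sscrofa11.1, and 5577 of 43597 probes received 1 of 2459 gene names. Coordinates were used only to find neighbouring and overlapping genes, and no sequences were used. Genes were summarised by the median over probes. Shares of probes well above background were 88.1% (minipig) and 85.2% (pig). No depth applies to arrays.

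The members and lists were chosen with earlier results of these data known. The text names the members, every pathway gene with a value, cell type markers where they stand beside a result, and the 3 nearest genes of each member. Alternatives were normexp (offset 50, on median spot signals, since the files hold no mean), median centring, quantile and loess (span 0.3) scaling, other filters on dim probes, the brightest probe of a gene, and the deposited table. Software was Python 3.11.15 (numpy 2.4.6, pandas 2.3.3, statsmodels 0.14.6, matplotlib 3.10.9) and limma 3.58.1 in R 4.3.3. The steps were tested on simulated data.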

Additional observations from a re-analysis of the deposited data

How the results depend on the processing

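No paired analysis was possible because there is 1 array per breed and no test. Taking the brightest probe of each gene gave -3.19 for INHA and -3.91 for INHBA, which leaves out the disagreeing INHBA probe. The deposited log2 table, with breeds as in the scanner files, gave -3.92 for INHBA, since it lists only the probe past 2-fold, and lists no FST probe. With the breeds as that table labels them, an alternative added after seeing the data, INHA was at 2.62 and INHBA at 3.92. Quantile normalization moved FST to -0.41. Normexp correction lowered the number of probes 2-fold or more higher on the minipig array from 3475 to 1411. The other 39 values, over 6 results, moved by less than the SD between spots, or for counts by less than 1.5 times. Only FST among INHA, INHBA and FST changed sign with scaling, at 0.08 after median centring. Median centring moved the median of all probes from -0.12 to 0.04, and quantile and loess normalization moved it to -0.01 and -0.0046. Signal over background did not limit the probes of INHA, INHBA or FST.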
